A study of Mus musculus with 18 samples.

Results

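The regions described here are the hairpins of mouse miRNA genes other than those of the miR-181 family. RefSeq (GRCm38.p6) lists 1228 genes of biotype miRNA, and leaving out the 6 Mir181 genes left 1222. Chimeric reads, each made of a miRNA joined to another piece of RNA, were taken where that other piece lay inside 1 of these 1222 gene spans. A hairpin read counted as "own-name" when the miRNA on it came from the same hairpin, and as "other-name" when it did not. Of the 1222 hairpins, 140 had at least 1 read and 1082 had none. Together they held 1433 of 1190995 chimeric reads (0.120%).

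The study profiled Ago2-bound miRNA chimeras (miR-eCLIP) in total thymocytes of mice 6 weeks old. Cells were crosslinked with UV light of 254 nm, 20 µg of total RNA was used for each sample, and libraries were sequenced as paired reads of 150 nt. There were 18 samples in 6 groups of 3. Wild-type mice were C57BL/6, and knockout mice were the strain B6.Mirc14tm1.1Ankr, whose labels name it miR181a/b-1-KO. From each genotype came an Ago2 immunoprecipitation (Ago2 IP), an Ago2 IP further enriched for miR-181 (enriched), and an input. The 6 inputs were not analysed here. All 12 libraries used were therefore pulled down with Ago2, so none measures RNA outside Ago2, and the knockout leaves the other miR-181 genes in place. The labels do not say how many mice gave each sample, so the p-values measure only the spread between these samples, which may be technical.

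A miRNA gene is transcribed as a long RNA in which the hairpin is cut out by Drosha, and Dicer then removes the loop. The 2 arms that remain are named 5p and 3p, and 1 of them is usually kept by an Argonaute protein, which it guides to targets through its seed, the bases 2 to 8. Many miRNA genes lie in clusters made as 1 transcript. The miR-17-92 cluster, with its paralogs miR-106b-25 and miR-106a-363, is known for promoting survival and growth of lymphocytes. miR-142, miR-150 and miR-155 are known as miRNAs of blood cells, and the let-7 family as miRNAs of mature, differentiated cells.

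The mature miRNAs below belong to the hairpins that held most of the reads. They are shown from 5′ to 3′, as RefSeq gives them with GRCm38.p6, with the seed in capitals, and they are grouped by seed.
miR-18a-5p: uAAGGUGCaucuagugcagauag
miR-18b-5p: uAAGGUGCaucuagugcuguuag
miR-93-5p: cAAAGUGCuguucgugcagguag
miR-20a-5p: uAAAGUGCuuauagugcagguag
miR-106a-5p: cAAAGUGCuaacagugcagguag
miR-17-5p: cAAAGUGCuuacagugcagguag
let-7f-5p: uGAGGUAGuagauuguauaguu
let-7b-5p: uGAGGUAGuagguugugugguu
miR-142a-3p: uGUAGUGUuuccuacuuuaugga
miR-92a-3p: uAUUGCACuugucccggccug

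miR-18a-5p and miR-18b-5p share 1 seed, and they differ over 23 bases by A18U and A20U (position from the 5′ end, the base of miR-18a-5p first). miR-17-5p and miR-106a-5p differ by U10A alone. The hairpins that carry the results are shown next, 5′ to 3′ on their own strand, with the annotated 5p and 3p arms in capitals and the loop and flanks in lower case.
Mir18, chr14:115043851-115043946, plus strand: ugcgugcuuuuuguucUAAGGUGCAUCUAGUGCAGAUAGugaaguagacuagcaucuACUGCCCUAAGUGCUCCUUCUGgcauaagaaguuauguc
Mir18b, chrX:52742331-52742413, minus strand: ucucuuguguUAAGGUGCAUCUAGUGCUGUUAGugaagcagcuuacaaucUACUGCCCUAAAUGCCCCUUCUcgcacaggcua
Mir93, chr5:138165523-138165610, minus strand: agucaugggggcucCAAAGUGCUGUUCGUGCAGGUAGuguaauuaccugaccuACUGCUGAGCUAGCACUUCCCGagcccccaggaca
Mir20a, chr14:115044157-115044263, plus strand: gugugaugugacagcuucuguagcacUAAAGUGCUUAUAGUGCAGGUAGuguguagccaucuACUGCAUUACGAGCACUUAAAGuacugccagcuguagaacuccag
Mir92-2, chrX:52741838-52741928, minus strand: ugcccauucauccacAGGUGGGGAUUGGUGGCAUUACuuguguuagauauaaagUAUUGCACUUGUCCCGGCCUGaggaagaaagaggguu
Mir142, chr11:87756864-87756927, plus strand: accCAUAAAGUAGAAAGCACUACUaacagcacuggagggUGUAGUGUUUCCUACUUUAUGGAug
Mirlet7f-1, chr13:48537829-48537917, minus strand: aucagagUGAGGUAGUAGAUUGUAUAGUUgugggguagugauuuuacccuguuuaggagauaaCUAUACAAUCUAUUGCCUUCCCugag

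The libraries differed widely in depth. The Ago2 libraries held 43983 to 117849 chimeric reads each in wild type and 52100 to 67639 in the knockout. The enriched libraries held 194628 to 293149 in wild type and 6832 to 19264 in the knockout. Lines that repeated the position, strand and name of another were 3.24 to 4.72% in the Ago2 libraries, 27.9 to 34.1% in enriched wild type and 5.84 to 7.91% in enriched knockout. Names of the miR-181 family made up 30.8% of chimeras from wild type and 1.39% from the knockout before enrichment, and 99.0% and 71.9% after it. Chi-square tests found no difference beyond sampling noise between enriched knockout libraries 2 and 3 (over 149 features, chi-square per degree of freedom 1.095, p = 0.20, and over 40 miRNA names, 1.26, p = 0.13), while every other pair of libraries of 1 group differed. Both are shallow, so a small difference could be missed. As a precaution they are counted below as 1 sample in means and SDs, which gives n = 2. Of the 6433 distinct lines of library 3, 317 were also among the 17740 of library 2 (1.79% of these). In library 1 it was 257 of 11320 (2.27%), so shared lines do not single out libraries 2 and 3. Levels are given as reads per 1000000 chimeric reads of the library (rpm), and the 11 thymocyte marker genes together had 10364 to 14783 rpm in all libraries. Summed B-cell, myeloid and erythroid marker genes reached at most 104, 59.1 and 146 rpm, and the myeloid genes Cd68 and Mpo were at 0. Marker miRNA names, summed per list, reached at most 227 rpm for myeloid cells, 116 for erythroid cells and 173 for epithelium and endothelium. These highest values came before enrichment, the myeloid and erythroid ones in wild type and the other in the knockout. Names for muscle and stroma reached 19.2 rpm, and the liver name was at 0. Of 6 marker genes listed for epithelium and stroma only Pecam1 had reads, at 246 to 305 rpm in wild type and 378 to 458 rpm in the knockout before enrichment, and at 77.1 to 98.9 and 259.6 to 328 rpm after it. Krt5, Krt8, Foxn1, Col1a1 and Col3a1 were at 0, so these values rest on 1 gene and do not measure epithelium or stroma. The part of these genes and miRNA names in the results was not tested. In such bulk libraries, fewer cells of a type and less RNA per cell cannot be told apart.

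Reads were concentrated on few hairpins. Mir18, Mir18b, Mir93 and Mir20a held 480 of the 1433 reads (33.5%), and the first 15 hairpins held 922 (64.3%). At the other end, 61 hairpins had 1 read, 49 had 2 to 9, and 30 had at least 10. Most reads carried the name of the hairpin they lay in: 1009 of 1433 were own-name reads (70.4%, Wilson 95% interval 68.0 to 72.7, which covers counting error only). In the miR-181 hairpins the same share was 99.6%. The hairpins were not alike in this respect. Of the 30 with at least 10 reads, 14 had an own-name share of at least 90%, 2 a share under 10%, and 14 lay between.

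**Figure D1:**
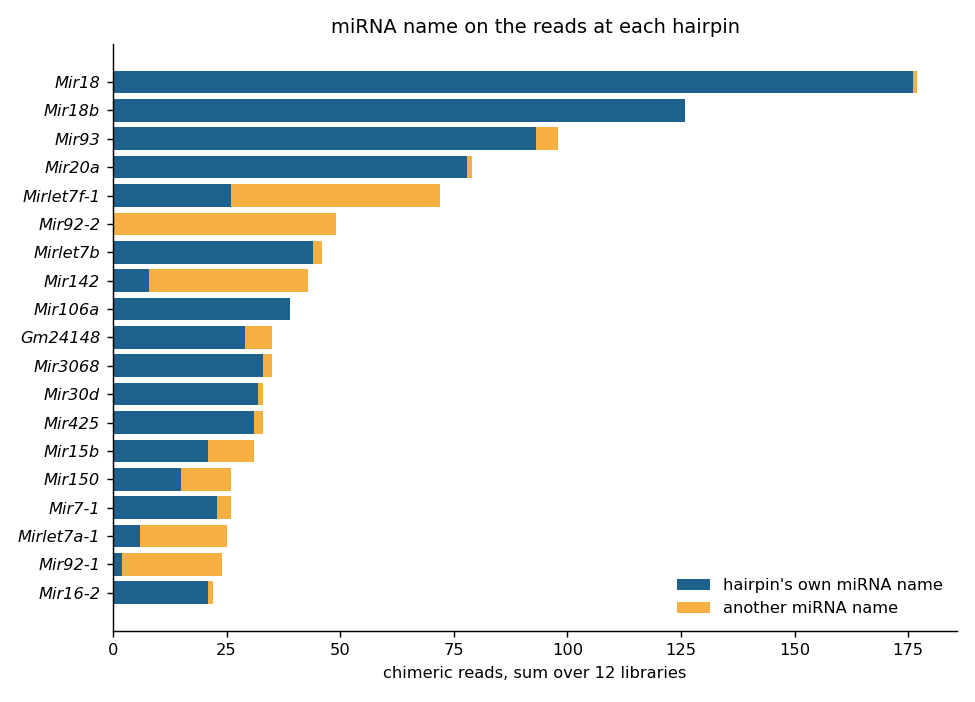
Chimeric reads at each hairpin with at least 20 reads, summed over the 12 libraries; the bar is split into reads with the hairpin's own miRNA name and reads with another name. Mir18 (176 of 177) and Mir18b (126 of 126) carried own names, while Mir92-2 (0 of 49) carried none.

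The 3 paralogous clusters miR-17-92, miR-106b-25 and miR-106a-363 held 627 of the 1433 reads (43.8%), with reads at 13 of 15 members. In miR-17-92 on chromosome 14, 5 of 6 members had reads, and 264 of the cluster's reads (88.9%) were own-name. Mir18 led with 177 reads, and all but 1 named miR-18a-5p. Mir20a followed with 79 reads, 78 of them own-name. Mir17, which opens the cluster, had 10 reads, and Mir92-1, which ends it, had 24. The reads of this 1 transcript were thus spread unevenly over its hairpins.

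The paralogous cluster miR-106a-363 on chromosome X held 228 reads at 6 of 6 members, 77.6% own-name. Mir18b held 126, Mir106a 39 and Mir92-2 49. In miR-106b-25, which lies inside the span of the replication gene Mcm7, 2 of 3 members had reads. Mir93 held 98 of the cluster's 102 reads, and 93 of these named miR-93-5p.

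Outside these clusters, the let-7 genes held 197 reads at 11 of 12 members, and 50.3% were own-name. Mirlet7f-1 had 72 reads (36.1% own-name) and Mirlet7b 46 (95.7%). The miR-15/16 genes, known for restraining the cell cycle, held 77 reads at 4 of 4 members, led by Mir15b (31) and Mir16-2 (22), both inside the span of Smc4. Mir191 and Mir425, both inside the span of Dalrd3, held 19 and 33 reads, 96.2% own-name together. The miR-30 genes held 74 reads at 5 of 7 members, led by Mir30d with 33.

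Several miRNA families were nearly bare. The miR-23/27/24 genes had 1 read at 1 of 7 members, the miR-29 genes 2 reads at 2 of 4, and the miR-26 genes 11 reads at 2 of 3. The large Sfmbt2 cluster had 14 reads at 8 of 81 members. Among the lymphocyte miRNAs, 3 of 7 hairpins had reads: Mir142 (43), Mir150 (26) and Mir155 (10). Mir342, Mir146, Mir128-1 and Mir128-2 had 0 reads each, for which a count of 0 allows up to 3 reads.

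Gm24148 and Mir3068 were also among the first 15. Gm24148, inside the span of the nucleolin gene Ncl, had 35 reads, and 29 named miR-3535. No read in any library named miR-3535 and lay elsewhere, so its own-hairpin share was 29 of 29 (Wilson lower bound 88.3%). Mir3068, inside the span of Alkbh1, had 35 reads, and 33 named miR-3068-5p.

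Reads lay inside the hairpins and seldom beside them. Within 100 nt on either side, on the same strand, 0 reads lay outside hairpins at Mir18, Mir18b and Mir20a, 4 at Mir93 and 5 at Mir142. Of the 1363 reads at hairpins whose strand the RefSeq sequence table gives, 1340 (98.3%) lay on the hairpin's own strand. Mir142 lies within Mir142b on the opposite strand, and reads there were assigned by strand.

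Reads at a miRNA's own hairpin did not follow its abundance among chimeras, as the plot of own-hairpin share against name reads shows. miR-142a-3p was on 142577 chimeras, and 8 of them lay in Mir142 (0.00561%). miR-18a-5p was on 4696, and 176 lay in Mir18 (3.75%, Wilson interval 3.24 to 4.33). For its paralog miR-18b-5p the count was 126 of 383 (32.9%, 28.4 to 37.8). miR-93-5p gave 93 of 9199 (1.01%, 0.826 to 1.24) and miR-20a-5p 78 of 15947 (0.489%, 0.392 to 0.610). miR-17-5p, from the same transcript as miR-20a-5p, gave 8 of 14502 (0.0552%). The 2 names with a share above 25% and at least 100 reads were miR-18b-5p and miR-3068-5p (33 of 118, 28.0%).

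The share also differed by arm. Names of 5p miRNAs lay in their own hairpin in 958 of 178572 chimeras (0.536%), and names of 3p miRNAs in 14 of 175183 (0.00799%). Without miR-142a-3p, which supplied most 3p chimeras, the 3p share was 6 of 32606 (0.0184%). The 5p share was the higher one in 12 of 12 libraries, with a mean difference of 1.07 percentage points (0.266 to 2.16). Among names with at least 1000 chimeras, 25 of 25 5p miRNAs had an own-hairpin read (median share 0.361%), against 1 of 12 3p miRNAs. miR-19b-3p, for example, had 0 of 4308, which allows a share of up to 0.0696%.

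**Figure D2:**
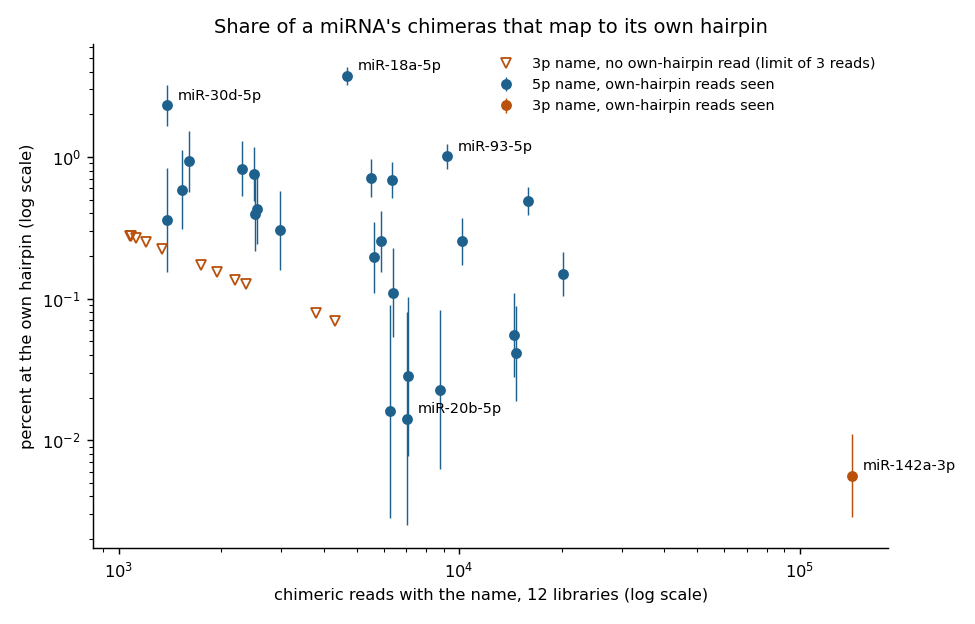
Each point is a miRNA name with at least 1000 chimeric reads; the horizontal axis is its number of reads over 12 libraries and the vertical axis the percent of them in its own hairpin, both on log scales, with Wilson 95% intervals. Open triangles mark names with no such read, at the limit that a count of 0 allows; miR-18a-5p lies highest at 3.75%, and 11 of the 12 3p names have no own-hairpin read.

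The position given for an own-name read depended on the hairpin's strand. In hairpins on the plus strand, such as Mir18, 440 of 441 own-name 5p reads (99.8%, 27 hairpins) lay between 5 nt before and 0 nt from the last base of the named miRNA. In hairpins on the minus strand, such as Mir18b, 0 of 453 (31 hairpins) did. There the median lay 34 nt past that base, and 95.1% of the 452 reads with an annotated other arm fell within the last 22 nt of the 3p arm, at a median of -5 nt from its end. Both places are the lower genome coordinate of the stretch that starts near the end of the 5p miRNA and runs through the loop and the 3p arm. Which end of a read the deposited position marks is not given in the sources used here, so strand and arm cannot be told apart in this difference. Whether the miRNA and the hairpin piece of such a read were ligated or came from 1 unbroken hairpin was not tested.

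**Figure D3:**
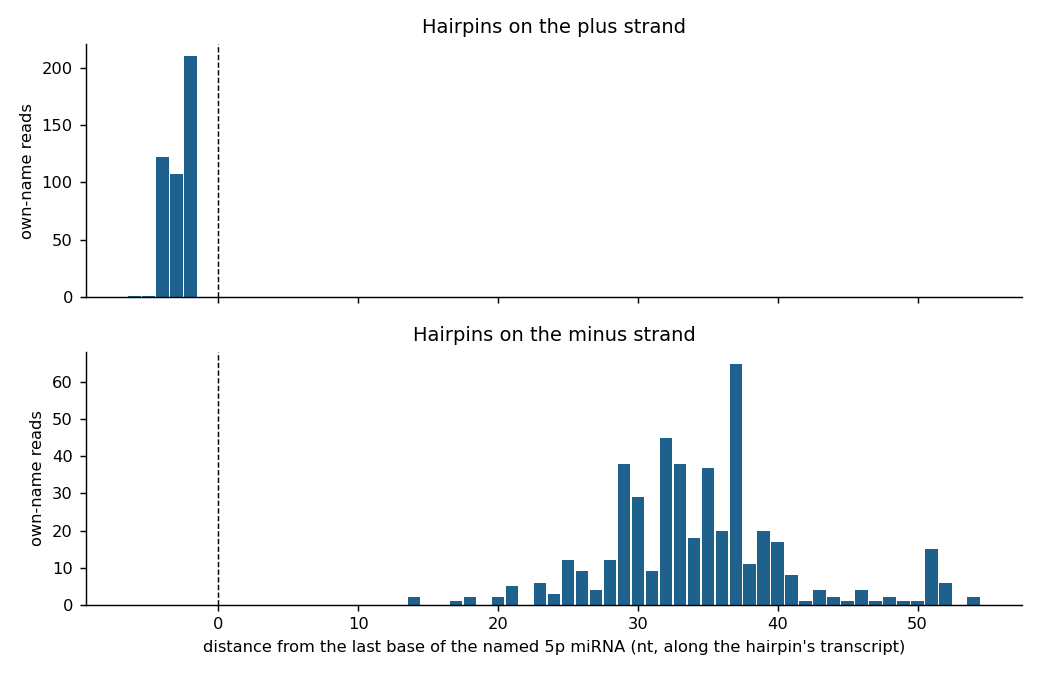
Own-name 5p reads by distance of their position from the last base of the named miRNA, in nt along the transcript, for hairpins on the plus strand (upper panel) and minus strand (lower panel). Plus-strand reads sit in a narrow peak just before 0, and minus-strand reads spread around a median of 34 nt past it.

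Positions were narrow on plus-strand hairpins. In Mir18, 113 of 176 own-name reads lay at -2 nt and 63 at -4 nt, with none at -3. Both sites were used in each group. They had 32 and 18 reads in wild type and 50 and 30 in the knockout before enrichment, and 9 and 1, and 22 and 14, after it. Mir20a had 73 of 78 at -2 nt, Mirlet7b 42 of 44 at -3 nt, and Mir425 23 of 31 at -4 nt. All 20 of Mir16-2 and all 19 of Mir15b that named the 5p arm lay at -3 nt. The 10 plus-strand hairpins with at least 5 such reads used 1 to 3 positions each, and the 17 minus-strand ones used 2 to 21. Mir18b spread over 21 positions, with 33 of 126 reads at the most used one.

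Because many reads shared a position, counting lines of the same position, strand and name once per library left 835 of the 1433 reads, 510 of them own-name. Mir18 went from 177 to 23, Mir20a from 79 to 14, Mir18b from 126 to 63 and Mir93 from 98 to 57. UMI-tools is among the tools in the submitters' processing notes, with no role given, so whether repeated lines were separate molecules was not tested.

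Reads with another miRNA's name lay mostly near the end of a mature miRNA. Of 372 such reads at hairpins with annotated arms, 221 (59.4%) lay within 5 nt of the lower-coordinate end of a mature miRNA, while such positions made up 21.1% of the length of these hairpins. The share was 71.6% on the plus strand and 49.3% on the minus strand. That gap depends on the 5-nt window. At 6 nt, just outside it, lay 54 of 203 minus-strand reads and 1 of 169 plus-strand reads. In the Ago2 IP, the miR-17 seed family (miR-17, miR-20a, miR-20b, miR-93, miR-106a and miR-106b, 5p arms) was on 28.3% of other-name reads in wild type (28 of 99, Wilson interval 20.4 to 37.8) and 29.6% in the knockout (32 of 108, 21.8 to 38.8). It was on 10.2% and 14.3% of all chimeras in these libraries. Mir92-2 alone held 21 of these 28 and 26 of these 32 reads. Without Mir92-2 the family was on 7 of 78 other-name reads in wild type (8.97%, 4.42 to 17.4) and 6 of 80 in the knockout (7.5%, 3.48 to 15.4), not above its share of all chimeras. let-7 names were on 3 of 99 and 7 of 108 of the other-name reads against 11.6% and 16.3% of all chimeras. These shares pool reads over libraries and were not tested.

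Mir92-2 was the hairpin with the most reads and no own name. Its 49 reads named miR-17-5p (17), miR-20a-5p (14), miR-20b-5p (9), miR-93-5p (5) and others, and they lay at 6 positions inside miR-92a-3p. The mature miR-92a-3p shown above contains GCACUU, the complement of bases 3 to 8 of miR-17-5p. That motif, searched on the strand of the miRNA, is in 16 of 1674 distinct mature sequences of the RefSeq table (0.956%). Mir92-1, which gives the same mature miR-92a-3p, had 24 reads, of which 20 named miR-142a-3p and 2 its own. How reads of a mature sequence found in 2 hairpins were placed is not given in the sources used here. Before enrichment Mir92-2 had 9, 4 and 8 reads in wild type, at 76.4, 57.9 and 182 rpm, and 7, 10 and 11 in the knockout, at 115, 148 and 211 rpm. All 6 enriched libraries had 0. Against a floor of 3 reads per library, its level was at least 8.44-fold lower in enriched wild type than before enrichment (mean 105 rpm), and the enriched knockout libraries were too shallow for a bound. That bound holds per all chimeras, nearly all of which carry miR-181 names after enrichment. Per chimeras outside miR-181, 3 reads equal a mean of 1295 rpm in enriched wild type against a level of 154 rpm before, so no bound can be given.

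At Mirlet7f-1 and Mir142 the other names were mostly miR-181. miR-181a-5p was on 42 of the 72 reads at Mirlet7f-1, 34 of them from the enriched wild-type libraries. In Mir142, 28 reads named miR-181a-5p and 7 named miR-181b-5p, and 31 of these came from the enriched wild-type libraries. The longest run of let-7f-5p that is complementary to miR-181a-5p is 3 bases, and for miR-142a-3p it is 4 bases. Mirlet7a-1 had 17 reads named miR-142a-3p among its 25.

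The first comparison asked how hairpin reads differ between knockout and wild-type thymocytes in the Ago2 IP. Hairpins took 0.144%, 0.175% and 0.241% of chimeras in the 3 wild-type libraries and 0.327%, 0.470% and 0.242% in the 3 knockout libraries. The knockout libraries were all above the wild-type ones, library 3 by a narrow margin. The means were 0.187 ± 0.0494% and 0.346 ± 0.115% (SD, n = 3 each), a ratio of 1.85 (two-sided exact permutation test, p = 0.1, the smallest that 3 against 3 allows, and 0.11 adjusted over 8 such tests). Counted among chimeras outside miR-181 alone, the shares were 0.255% and 0.351% and the groups overlapped (exact permutation p = 0.3). The own-name share was 74.1 to 76.4% in wild type and 80.2 to 85.2% in the knockout, without overlap (exact permutation p = 0.1, adjusted 0.11). Outside miR-181 names it was 80.6% and 82.4% (exact permutation p = 0.4). Per 100 chimeras outside miR-181 wild type had 0.205 ± 0.0608 own-name reads and the knockout 0.292 ± 0.106 (SD, n = 3 each), and the groups overlapped (exact permutation p = 0.3).

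Of the 107 hairpins with reads in these 6 libraries, 4 passed the filter on low counts: Mir18, Mir18b, Mir93 and Mir20a, all from the miR-17 paralog clusters. All 4 were higher in the knockout (edgeR quasi-likelihood test, Benjamini-Hochberg adjusted p of at most 0.05), where 9.73% of the 1572 features tested were called, 2.99% as higher and 6.74% as lower. The median log2 fold change over all features was 0.01. To pass the filter, a hairpin had to reach 167 reads per 1000000 placed reads in 3 libraries. Mir18 did so in all 6 libraries, Mir93 and Mir20a in 3 knockout and 1 wild-type library each, and Mir18b in 2 and 1. The last 3 thus entered mainly through the group where they were high, so the count of 4 is no support for a direction and does not stand for the other hairpins.

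Mir18 was at 169.7, 304 and 227 rpm in the wild-type libraries and at 378, 606 and 307 rpm in the knockout. All 3 knockout values were above all wild-type ones, by a narrow margin between knockout library 3 (16 reads) and wild-type library 2 (21 reads). Its log2 fold change was 0.96 (SE 0.28, edgeR adjusted p = 0.018). Per chimeras outside miR-181 its groups overlapped, at 243, 440 and 336 rpm in wild type and 383, 615 and 312 in the knockout. Mir93 was at 84.9, 145 and 159 rpm against 313, 384 and 269 rpm. Its groups did not overlap and its log2 fold change was 1.43 (SE 0.33, edgeR adjusted p = 0.0021). The 2 hairpins come from different clusters of the miR-17 group and carry different seeds.

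Mir18b was at 136, 159 and 114 rpm in wild type and at 411, 709.6 and 115 rpm in the knockout. Knockout library 3 thus fell among the wild-type values, while the other 2 lay far above them; the log2 fold change was 1.61 (SE 0.35, edgeR adjusted p = 0.0013). Mir20a was at 59.4, 101 and 227 rpm against 197, 355 and 192 rpm, and these groups overlapped as well. Its log2 fold change was 1.22 (SE 0.39, edgeR adjusted p = 0.039).

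These calls depended on the method and on single libraries. DESeq2 called none of the 4, though all 4 had an unadjusted p under 0.05 there. With only chimeras outside miR-181 counted, Mir18b alone was called (log2 fold change 1.13, edgeR adjusted p = 0.022), where 2.3% of features were called. Without wild-type library 1 the only call left was Mir18b, without knockout library 2 it was Mir93, and without wild-type library 2 Mir20a was lost (1.17, edgeR adjusted p = 0.12).

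**Figure D4:**
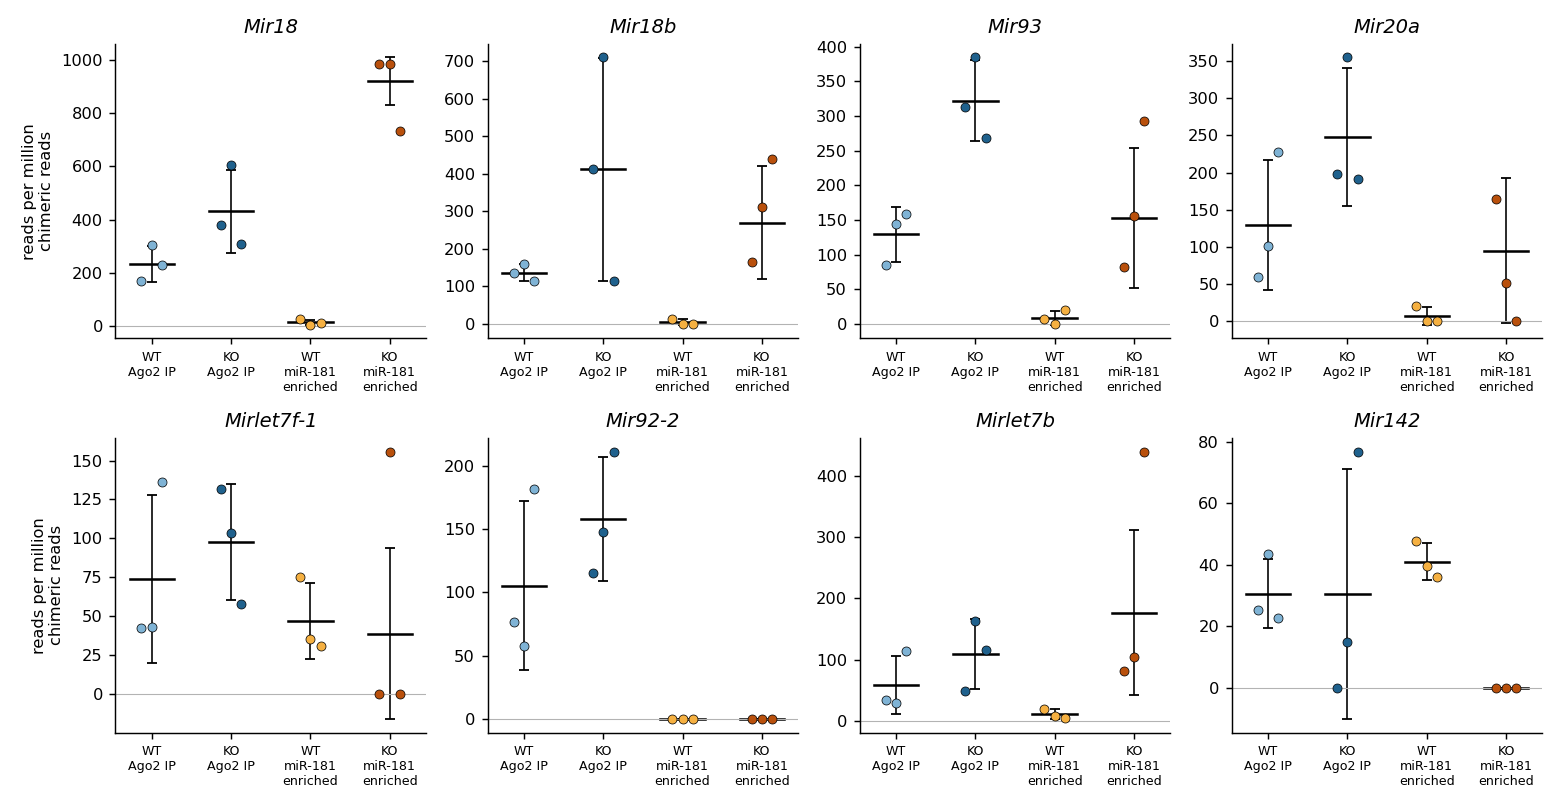
Level in rpm of the 8 hairpins with the most reads; each point is 1 library, and bars give the mean and SD over 3 libraries, or over 2 samples in the enriched knockout, whose libraries 2 and 3 count as 1. Mir18 is highest in the enriched knockout libraries (732 to 986), and Mir92-2 is at 0 in all 6 enriched libraries.

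The second comparison asked the same after enrichment for miR-181. Hairpin reads were 0.0467%, 0.0300% and 0.0272% of chimeras in the enriched wild-type libraries and 0.287%, 0.353% and 0.351% in the enriched knockout ones. The means were 0.0346 ± 0.0106% (SD, n = 3) and 0.320 ± 0.0459% (SD, n = 2), a ratio of 9.23 without overlap. The exact permutation test gave p = 0.1 with 3 against 3 libraries (adjusted 0.11) and 0.2 with libraries 2 and 3 as 1 sample. Among chimeras outside miR-181 the shares were 0.765% and 1.09% and overlapped (exact permutation p = 0.2). The own-name share was 17.1 to 27.7% in wild type and 88.2 to 95.8% in the knockout, and outside miR-181 names it was 94.7% and 99.0% (exact permutation p = 0.7). Of the 205 other-name reads in the enriched wild-type libraries, 202 named miR-181.

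Only 2 of 87 hairpins with reads there passed the filter, Mir18 and Mir18b, and both were called higher in the knockout, where 5.19% of 2081 features were called, 1.83% as higher and 3.36% as lower. Both passed the filter through the 3 knockout libraries alone, with 0 wild-type libraries at the level it asks for, so their direction was fixed by the filter. Mir18 had 7, 1 and 2 reads in the enriched wild-type libraries and 12, 19 and 5 in the far shallower knockout ones. In rpm these were 23.9, 3.94 and 10.3 against 985, 986 and 732, with no overlap. The log2 fold change was 5.69 (SE 0.47, edgeR adjusted p = 1.15e-10). Mir18b had 4, 0 and 0 reads against 2, 6 and 3. Its log2 fold change was 5.18 (SE 0.63, edgeR adjusted p = 4.64e-07). Leaving out any 1 of the 6 libraries kept Mir18 called, at 5.34 to 6.73, while Mir18b did not pass the filter in any of these fits and was not tested. miR-181 names took up 99.0% of the wild-type reads and 71.9% of the knockout reads, and relative to chimeras outside miR-181 alone Mir18 was at 1949, 384 and 1264 in wild type and 3334, 3597 and 2674 rpm in the knockout. No hairpin passed the filter in a fit of those chimeras alone.

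The third comparison set the enriched libraries against the Ago2 IP in wild type. The share of hairpin reads was 0.187% of chimeras before and 0.0346% after enrichment, a ratio of 0.185 without overlap (exact permutation p = 0.1, adjusted 0.11). Counted among chimeras outside miR-181 the order was the opposite, 0.255% before and 0.765% after. Own-name reads per 100 chimeras outside miR-181 were 0.153, 0.191 and 0.272 in the Ago2 IP and 1.06, 0.500 and 0.632 after enrichment, a ratio of 3.56 without overlap (exact permutation p = 0.1, adjusted over 4 tests 0.2). Of 115 hairpins with reads, 3 passed the filter, and all 3 were called lower after enrichment, where 35.5% of 3051 features were called, 15.8% as lower and 19.6% as higher. All 3 passed through the Ago2 IP libraries alone, with 0 enriched libraries at the level the filter asks for, so a hairpin low before enrichment could not enter and the direction was fixed. In a fit of chimeras outside miR-181 alone, where 4.9% of 245 features were called, no hairpin passed the filter. The log2 fold changes were -3.61 for Mir18 (SE 0.43, edgeR adjusted p = 1.62e-10), -4.14 for Mir18b (SE 0.53, edgeR adjusted p = 1.28e-09) and -3.37 for Mir93 (SE 0.51, edgeR adjusted p = 1.25e-07). Leaving out 1 library at a time gave 4 or 5 calls, among them these 3 each time, and the 5 came without Ago2 library 2. Per chimeras outside miR-181 the means had the opposite order for each of the 3. Mir18 was at 243, 440 and 336 rpm before and 1949, 384 and 1264 rpm after enrichment, Mir18b at 194, 231 and 168 against 1114, 0 and 0, and Mir93 at 121, 209.6 and 235 against 557, 0 and 2528. On that scale the groups overlapped for all 3.

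The fourth comparison was the same contrast in the knockout. Here the share of hairpin reads was 0.346% in the Ago2 IP and 0.320 ± 0.0459% (SD, n = 2) after enrichment, and the groups overlapped (exact permutation p = 0.9 over 3 against 3 libraries). Own-name reads per 100 chimeras outside miR-181 were 0.272, 0.406 and 0.197 in the Ago2 IP and 0.889, 1.14 and 1.23 after enrichment. With libraries 2 and 3 as 1 sample the enriched mean was 1.04 ± 0.208 (SD, n = 2), a ratio of 3.55 (exact permutation p = 0.2; with 3 against 3 libraries p = 0.1). Own-name reads were 80.2 to 85.2% of hairpin reads before and 88.2 to 95.8% after enrichment.

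**Figure D5:**
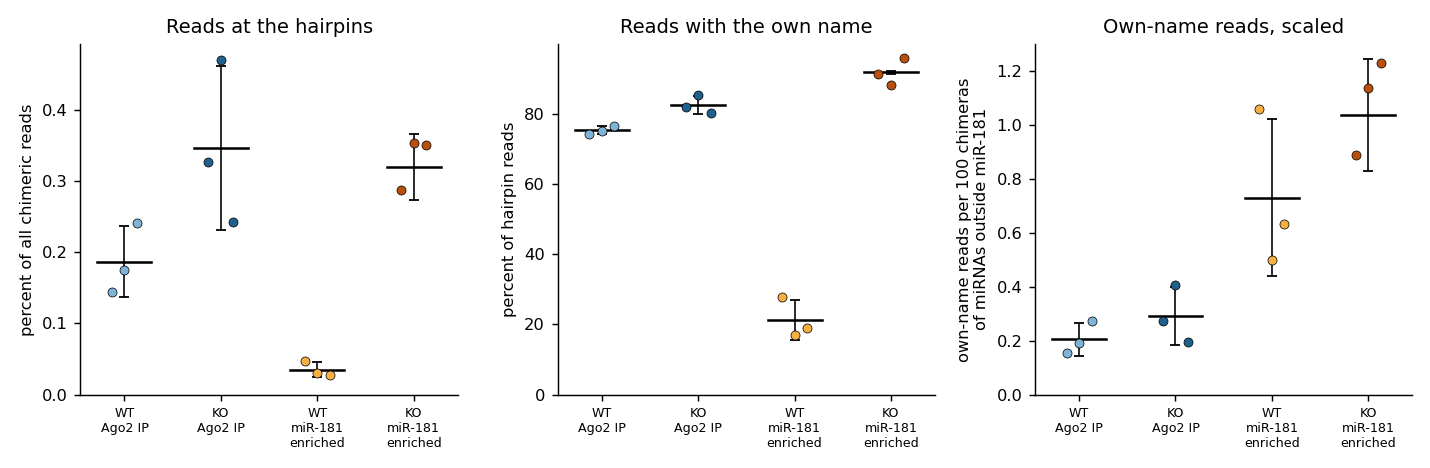
For each library (points) and group (mean and SD, over 3 libraries or, in the enriched knockout, over 2 samples): the percent of chimeric reads at the hairpins, the percent of those reads with the own name, and own-name reads per 100 chimeras outside miR-181. The enriched wild-type libraries are lowest in the first 2 panels (0.0272 to 0.0467% and 17.1 to 27.7%), while both enriched groups lie above both Ago2 IP groups in the last.

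In the knockout, 3 of 86 hairpins with reads passed the filter and 1 was called, where 21% of 797 features were called, 15.9% as higher and 5.02% as lower. Mir18 was higher after enrichment, by 1.27 on a log2 basis (SE 0.33, edgeR adjusted p = 0.0015). Mir18b was at -0.41 (SE 0.51, edgeR adjusted p = 0.64) and Mir93 at -0.86 (SE 0.58, edgeR adjusted p = 0.33), neither past the threshold. The call for Mir18 was lost without enriched library 2 (1.06, edgeR adjusted p = 0.13) and with no filter on low counts (0.67, edgeR adjusted p = 0.50). With no filter the 1 hairpin called was Mir92-2, as lower after enrichment (edgeR adjusted p = 0.046). That call rests on 0 reads in the enriched libraries, where 3 reads equal a mean of 280 rpm. Its Ago2 IP mean was 158 rpm, so the libraries are too shallow to bound the change. With clusters of nearby positions as features, Mir18 turned to -0.29. Counting only chimeras outside miR-181 raised the values to 2.72 for Mir18, 1.03 for Mir18b and 0.58 for Mir93. Of these Mir18 was called, where 2.67% of features were called. That fit also called Mir30d (2.83) and Mir7-1 (3.77), at edgeR adjusted p = 0.0048 and 1.17e-04. On that scale Mir30d was at 133, 120 and 0 rpm before and 556, 947 and 535 rpm after enrichment (2, 5 and 1 reads). Mir7-1 was at 33.3, 75.0 and 19.5 rpm before and 834, 379 and 1604 rpm after it (3, 2 and 3 reads). Both thus passed the filter through the enriched libraries, so their direction was fixed by it.

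The share of a miRNA's chimeras that lay in its own hairpin uses neither the depth nor the miR-181 content of a library. For miR-18a-5p it was 1.82%, 3.6% and 2.82% in wild type and 2.99%, 4.44% and 2.15% in the knockout before enrichment. After enrichment it was 12.7%, 3.03% and 13.3% in wild type (7 of 55, 1 of 33 and 2 of 15 chimeras) and 20.0%, 23.2% and 15.6% in the knockout (12 of 60, 19 of 82 and 5 of 32). The 3 enriched knockout libraries were above all others, by a narrow margin. It was 5 of 32 in enriched knockout library 3 against 2 of 15 in enriched wild-type library 3. The enriched wild-type libraries overlapped the Ago2 IP, and the Ago2 IP groups overlapped each other. For miR-18b-5p the share was 24.6%, 26.8% and 29.4% in wild type and 35.7%, 47.1% and 12.2% in the knockout before enrichment. After enrichment it was 50.0%, 0% and 0% in wild type (4 of 8, 0 of 5 and 0 of 2) and 33.3%, 54.5% and 42.9% in the knockout (2 of 6, 6 of 11 and 3 of 7). No order can be read from counts this small.

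Before enrichment, miR-93-5p had shares of 0.367%, 0.823% and 0.904% in wild type and 1.20%, 1.46% and 1.0% in the knockout. These did not overlap, by a narrow margin of 7 of 774 chimeras in wild type against 13 of 1300 in the knockout. miR-20a-5p had 0.187%, 0.316% and 0.737% against 0.481%, 0.776% and 0.438%, and miR-106a-5p 0.158%, 0.148% and 0.696% against 0.678%, 1.1% and 0.575%. Both of these pairs of groups overlapped. For miR-30d-5p, 6 of 572 wild-type and 16 of 726 knockout chimeras lay in Mir30d before enrichment, and after enrichment 2 of 36 did in wild type and 8 of 49 in the knockout. For miR-7a-5p the counts were 5 of 185 and 7 of 208 before, and 3 of 10 and 8 of 17 after it. These shares were not tested between groups.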

How the data were processed

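The authors deposited 2 files for each of 12 libraries, 1 per strand, with 1 line per chimeric read (a genome position, the miRNA name and a count of 1). Per the labels' protocols, a company made the libraries. STAR 2.7.10, Bowtie2 2.4.5, SAMtools 1.11, UMI-tools 1.1.1 and bedtools 2.30.0 and the builds mm10 and GRCm38.p6 are named in the submitters' processing notes without their roles. A read was given to a RefSeq gene span, miRNA hairpins first (the span on its own strand before the other), then a single protein-coding span, then a single other span, which placed 92.6 to 94.0% of reads. A name was a hairpin's own when its gene symbol or annotated mature names matched.

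Features were tested in edgeR 4.0.16 (R 4.3.3; filterByExpr at a minimum count of 10, TMM normalisation, quasi-likelihood test, Benjamini-Hochberg adjustment over all features tested), fitting only the 6 libraries of each comparison. Shares were compared with exact permutation tests (scipy 1.17.1), and intervals are Wilson's at 95%. Alternatives used DESeq2 1.42.0, no filter, identical lines once, chimeras outside miR-181, position clusters (20 nt), spans widened by 20 nt, a replicate block and leaving out libraries. Own-name reads per 100 chimeras outside miR-181, the test of genotype by enrichment, and the fit with knockout libraries 2 and 3 as 1 sample in shares were added after seeing the data.

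Named hairpins were the 15 with the most reads, the 5 of smallest p per direction and comparison, members of the listed clusters with at least 20 reads, and lymphocyte miRNAs. Others are named where a list or count is small, after their values were seen. The hairpins and lists were chosen with earlier results of these data known. On simulated data with 4-fold changes, the fits recovered 200 of 200, 15 of 15, 200 of 200 and 8 of 8 changed features in the 4 comparisons, in order, and the interaction 106 of 200. Unchanged features called were 12, 3, 15 and 1, and 11 for the interaction. Changed features were picked only where at least 20 reads were expected in the smallest library, or 3 for the interaction. No hairpin outside the miR-181 family reached that depth, so recovery at the depth of these hairpins was not tested.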

Additional observations from a re-analysis of the deposited data

Results flagged for a closer look

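Whether enrichment for miR-181 moved a hairpin's reads differently in the 2 genotypes was tested as an interaction over all 12 libraries, after the data were seen. Of 2004 features tested, 44 were called (2.20%, edgeR adjusted p of at most 0.05), and 5 of the hairpins were among those tested. For Mir18, the change from the Ago2 IP to the enriched libraries was higher in the knockout than in wild type, with a log2 difference of 4.61 (SE 0.57, edgeR adjusted p = 7.25e-10). For Mir18b the difference was 3.42 (SE 0.91, edgeR adjusted p = 0.019). It rested on 4, 0 and 0 reads in the enriched wild-type libraries and 2, 6 and 3 in the enriched knockout ones. With library sizes alone the values were 5.02 and 3.81, and with knockout libraries 2 and 3 summed 4.75 and 3.55. Mir106a (3.15, SE 1.33, edgeR adjusted p = 0.26), Mir93 (2.23, SE 0.96, edgeR adjusted p = 0.27) and Mir20a (1.46, SE 1.23, edgeR adjusted p = 0.73) did not pass. These fits count all chimeras. Per chimeras outside miR-181, mean Mir18 went from 340 to 1199 rpm in wild type and from 437 to 3235 rpm in the knockout. Mean Mir18b went from 198 to 371 rpm (1114, 0 and 0 in the enriched libraries) and from 418 to 963 rpm. On that scale both means rose in both genotypes, and no interaction was fitted. The part that the differing miR-181 content of the libraries has in the interaction values was not tested.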

How the results depend on the processing

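Counts of hairpins called moved with the setting. In the Ago2 IP, knockout against wild type, 4 calls became 0 with DESeq2, 2 with no filter, 0 with identical lines once (1 hairpin tested, at an unadjusted p under 0.05) and 1 with chimeras outside miR-181. With no filter, 2 calls became 6 in the enriched libraries between genotypes (87 hairpins among 14972 features tested). Between enriched and Ago2 IP in wild type, 3 became 9 (115 among 15900). The share of all features called is given here only for the main fits and those of chimeras outside miR-181. The other counts thus show how calls move with the setting, and not whether hairpins differ from other features. Within the knockout, 1 call, as higher, became 3 with chimeras outside miR-181 and 2 with libraries 2 and 3 summed. It became 2 with position clusters, both as lower, and 1 with no filter, also as lower (Mir92-2, with 0 reads after enrichment). Leaving out 1 library gave 1 to 4 calls in that first comparison, 1 between genotypes after enrichment, 4 to 5 for enrichment in wild type and 0 to 1 for enrichment in the knockout (0 of 4 tested, 1 at an unadjusted p under 0.05, edgeR). Within the knockout, Mir18 turned to -0.29 with position clusters, and Mir18b and Mir93 turned to 1.03 and 0.58 with chimeras outside miR-181. The cause was not tested. With only chimeras outside miR-181, the difference of hairpin shares between enriched and Ago2 IP became 0.51 percentage points in wild type and 0.74 in the knockout, and that of own-name shares in wild type 14.1. The knockout difference was 0.043 with identical lines once and ran from -0.068 to 0.046 when 1 library was left out. With position clusters, Mir18b and Mir93 were called lower within the knockout (-1.92 and -2.32). Of the counts of calls, 29 under other settings stayed within 1.5 times and kept their direction. Of the differences between shares, 104 kept their direction; their exact tests cannot go below p = 0.1, so they show nothing about a threshold. No hairpin passed the filter with chimeras outside miR-181 between genotypes after enrichment or for enrichment in wild type, nor with identical lines once outside the first comparison.

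Libraries share sample numbers across groups. Between genotypes, deviations of same-numbered libraries correlated at -0.105 to 0.0056, each below the highest value of differently numbered ones. Between enriched and Ago2 IP they correlated at 0.111, -0.0067 and 0.0413 in wild type, where differently numbered ones reached -0.0236, 0.0284 and 0.0284. In the knockout they were 0.0750, 0.0432 and 0.0731, each above the differently numbered ones (at most 0.0104). All are small, and whether the numbers pair enriched with Ago2 IP libraries was not tested. With the number as a replicate block, 3, 2, 3 and 1 hairpins were called in the 4 comparisons, and Mir20a lost its call (1.1, edgeR adjusted p = 0.095).

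Depth limits most hairpins: 110 of the 140 with reads had under 10 over 12 libraries, and 3 reads equal 439 rpm in the shallowest library.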
